A study of Homo sapiens with 50 samples.

Results

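Quizalofop-p-ethyl and isoxaflutole, a pair of herbicides of unlike structure and plant target, were compared at the same concentration of 1 mM in differentiated HepaRG cells by RNA sequencing. The comparison rests on the 5 libraries titled for quizalofop-p-ethyl at 1 mM and the 5 titled for isoxaflutole at 1 mM, which are 10 of the 50 libraries of the series. Libraries of control (5), of mesotrione at 1 mM (5) and of both compounds at 10 uM and at 0.1 uM (10 at each) are used beside them. HepaRG is 1 human hepatic cell line, which differentiates into a mixed culture of cells like hepatocytes and cells like bile duct epithelium. Per the labels' protocols, cells were plated from a commercial stock and held in general medium until day 8. From day 8 to day 14 they lay in test medium with 2% serum and 1% DMSO, to which a compound was added. Whether the 5 libraries of a group stem from cultures grown apart is not in the labels. The p-values then describe the spread among these libraries alone, and that spread may be technical. Of 56567 gene names in the deposited table, 12666 reached 1 FPKM in at least 5 of the 10 libraries and were tested.

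Isoxaflutole is an isoxazole that plants convert into a blocker of a dioxygenase of tyrosine degradation. The human counterpart of that enzyme is HPD. Quizalofop-p-ethyl is an ester of the aryloxyphenoxypropionate class, which blocks acetyl-CoA carboxylase in the plastids of grasses and with it fatty acid synthesis. Its human counterparts are ACACA and ACACB. Liver cells sense foreign compounds with the nuclear receptors CAR and PXR, which drive CYP3A4, CYP2B6 and CYP2C genes, and with the aryl hydrocarbon receptor AHR, which drives CYP1A1 and CYP1B1. PPARalpha is a nuclear receptor that binds fatty acids and drives genes of fat oxidation and storage. In the integrated stress response, shortage of amino acids or misfolded protein slows translation and favours the factor ATF4, which drives genes of amino acid supply.

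The promoters of 6 genes on which the comparison turns are printed because they hold short motifs known for the receptors and factors above. Each is the 250 bases before the gene's start in RefSeq (build GRCh38.p14), 5′ to 3′ on the gene's strand, with the motif in capitals. The spans given below for genes are those of the deposited table, whose annotation places the start of CYP3A4 and of CYP1A1 within the promoter printed here.
CYP3A4, chr7:99784185-99784434, minus strand: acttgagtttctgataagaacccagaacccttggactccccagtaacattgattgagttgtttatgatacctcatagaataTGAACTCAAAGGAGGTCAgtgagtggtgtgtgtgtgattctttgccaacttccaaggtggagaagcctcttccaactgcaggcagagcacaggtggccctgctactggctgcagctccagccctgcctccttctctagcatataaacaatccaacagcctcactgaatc
ASNS, chr7:97872409-97872658, minus strand: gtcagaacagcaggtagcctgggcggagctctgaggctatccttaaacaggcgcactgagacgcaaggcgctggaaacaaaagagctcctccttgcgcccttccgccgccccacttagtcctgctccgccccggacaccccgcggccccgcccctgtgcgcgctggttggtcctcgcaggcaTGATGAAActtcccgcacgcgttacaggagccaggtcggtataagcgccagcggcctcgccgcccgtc
CHAC1, chr15:40953221-40953470, plus strand: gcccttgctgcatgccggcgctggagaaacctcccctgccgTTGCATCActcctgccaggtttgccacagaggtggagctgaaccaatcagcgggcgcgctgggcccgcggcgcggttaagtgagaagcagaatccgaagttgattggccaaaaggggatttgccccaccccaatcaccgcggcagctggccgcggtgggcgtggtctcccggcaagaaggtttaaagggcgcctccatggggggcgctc
FGF21, chr19:48755274-48755523, plus strand: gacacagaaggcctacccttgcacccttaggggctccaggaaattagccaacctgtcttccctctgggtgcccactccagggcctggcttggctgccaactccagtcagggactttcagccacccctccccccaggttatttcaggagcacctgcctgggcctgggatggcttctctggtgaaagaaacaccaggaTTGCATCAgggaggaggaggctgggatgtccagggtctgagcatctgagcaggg
CYP1A1, chr15:74725529-74725778, minus strand: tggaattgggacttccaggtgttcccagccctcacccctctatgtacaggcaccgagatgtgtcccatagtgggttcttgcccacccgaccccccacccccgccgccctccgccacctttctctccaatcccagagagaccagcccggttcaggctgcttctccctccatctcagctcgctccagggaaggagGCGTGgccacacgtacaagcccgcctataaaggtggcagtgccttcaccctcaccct
RRM2, chr2:10122489-10122738, plus strand: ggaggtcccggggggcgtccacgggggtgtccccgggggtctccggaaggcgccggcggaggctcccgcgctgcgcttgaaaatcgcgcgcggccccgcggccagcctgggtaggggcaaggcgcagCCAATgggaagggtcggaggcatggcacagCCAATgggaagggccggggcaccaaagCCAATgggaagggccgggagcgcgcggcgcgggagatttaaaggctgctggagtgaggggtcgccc
In the CYP3A4 promoter the capitals mark TGAACT and AGGTCA with 6 bases of any kind between them, an everted pair of the core sites that PXR binds, which begins at -169 from the start. In the ASNS, CHAC1 and FGF21 promoters they mark TGATGNAA, the C/EBP-ATF element that ATF4 binds with its partners, at -68, -209 and -54. The CHAC1 and FGF21 matches lie on the other strand, so the capitals there read as the reverse complement. In the CYP1A1 promoter they mark GCGTG, the core that AHR binds with ARNT, at -57, and in the RRM2 promoter they mark 3 copies of CCAAT. Both strands were searched, and overlap with another motif was not considered.

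The search covered 27305 promoters, 8964 of them of genes tested here. The paired core sites stood in 2 of 19 promoters of the CAR and PXR list, those of CYP3A4 and CYP3A5, against 0.0223% of the promoters of genes tested. These 2 promoters make up that whole share, so it is no separate background. Of all 27305 promoters 3 held the sites. TGATGNAA stood in 3 of 23 promoters of the integrated stress response list, those of ATF3, CHAC1 and ASNS, against 1.31% of the promoters of genes tested. GCGTG stood in 4 of 8 promoters of the AHR list against 46.4%, TGACNNNGC, the core of the element that NRF2 binds, in 4 of 18 of the NRF2 list against 12.1%, and CCAAT in 17 of 20 of the cell cycle list against 35.4%. A site of the hepatocyte factor HNF1 stood in 1 of 24 promoters of secreted hepatocyte proteins, that of FGA, against 0.245%. Of the 20 genes of the cytosolic tRNA synthetase list 2 were in the promoter table, and neither held TGATGNAA. A match of letters is a description and shows no binding.

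The 10 libraries held an estimated 11270000 to 19560000 fragments with quizalofop-p-ethyl and 11260000 to 31100000 with isoxaflutole. Within the groups, log2 values of library pairs correlated at 0.916 to 0.955 and at 0.933 to 0.956 across genes, which are not independent replicates. Summed FPKM, genes at 1 FPKM or more, estimated fragments, and the shares of mitochondrial genes, ribosomal RNA loci and the 10 highest genes did not pass an exact two-sided permutation test adjusted over these 6 measures (smallest adjusted p = 0.0952, for 12172 ± 282 against 12634 ± 174 genes at 1 FPKM or more). The smallest p that the design allows is 0.00794. Mitochondrial genes held 1.33% to 1.42% of summed FPKM in quizalofop-p-ethyl libraries 3, 4 and 5, 0.356% and 0.627% in libraries 1 and 2, and 0.427% to 0.597% in the isoxaflutole libraries. Library 1 of quizalofop-p-ethyl had a summed FPKM of 569268, below the other 4 at 737322 to 801657. Isoxaflutole library 1 was the lowest of its group too, at 587530 against 647852 to 724149. The titles number the samples in 5 runs, and the control and 1 mM mesotrione libraries of the same run were also the lowest of their groups, at 559096 and 635919. Without quizalofop-p-ethyl library 1, summed FPKM, genes at 1 FPKM or more and the mitochondrial share each passed (adjusted p = 0.0317, exact permutation test). Without library 1 of both compounds none did (smallest adjusted p = 0.0857). There summed FPKM and the mitochondrial share had p = 0.0286, the smallest that the 70 splits of that permutation test allow. This result cannot show that their differences went away.

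With quizalofop-p-ethyl, CYP3A4 and most genes of liver plasma proteins and the cell cycle were lower than with isoxaflutole. Genes of the integrated stress response, most immediate early genes and PLIN2, of lipid droplets, were higher. In this comparison 4530 of 12666 genes (35.8%) passed limma's test, 1836 higher with quizalofop-p-ethyl (14.5%) and 2694 lower (21.3%). The libraries of the groups did not overlap for 3605 genes (28.5%), 1421 higher (11.2%) and 2184 lower (17.2%). Differences are means of log2(FPKM + 1) with quizalofop-p-ethyl less those with isoxaflutole, called where the Benjamini-Hochberg adjusted p over all genes tested is under 0.05. This scale understates changes of genes near 0. Among the calls, 429 genes were over 2-fold higher and 1021 over 2-fold lower, and 16 and 84 were over 8-fold apart. The median of all genes tested was -0.04. In the gene lists below, 648 of 790 genes were tested and 142 stayed under the filter. Of those tested, 25 were under 1 FPKM in all 5 quizalofop-p-ethyl libraries and 4 in all 5 isoxaflutole libraries, so that they passed the filter through the group where they were high. List counts are read against the shares of all genes tested and were not tested as sets. With all 50 libraries of the series in 1 fit, 2677 genes passed, 1014 higher and 1663 lower. That fit holds library 5 of quizalofop-p-ethyl at 10 uM, with 53.8% of its summed FPKM in ribosomal RNA loci. Without that library 5433 genes passed. Calls given below as lost with all 50 libraries come from the fit that holds it. Median-ratio scaling moved the share of higher calls from 40.5% to 47.8% of 4765.

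CYP3A4, the main drug-metabolising cytochrome P450 of the liver, had the greatest difference among the genes named by rule (chromosome 7, 99756960 to 99784265, GRCh38). With quizalofop-p-ethyl its values were 0.941, 0.147, 2.88, 0.437 and 0.1998 FPKM in libraries 1 to 5, and with isoxaflutole 80.3, 138, 196, 274 and 180.2 FPKM. Every isoxaflutole library lay above every quizalofop-p-ethyl library (log2 difference -6.56, SE 0.38, adjusted p = 9.21e-07). Control lay between the compounds at 2.76 ± 0.216 FPKM, near quizalofop-p-ethyl, and mesotrione lay at 10.8 ± 5.08. CYP3A genes share sequence, so the split of reads between them is uncertain.

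Of the 22 tested CAR and PXR targets, of 25 in the list, 18 were lower with quizalofop-p-ethyl and 2 were higher, with a median of -1.76 against -0.04 for all genes. Of these 22, 4 were under 1 FPKM in every quizalofop-p-ethyl library. GSTA2, a glutathione transferase, held 3.75, 0.465, 4.59, 5.11 and 0.352 FPKM with quizalofop-p-ethyl and 73.9, 85.1, 109, 96.5 and 116 with isoxaflutole. No library of one group reached the other (log2 difference -4.92, SE 0.43, adjusted p = 1.25e-05), and control lay at 67.6 ± 19.96, so here isoxaflutole lay near control. CYP2C8, which metabolises drugs, lay at 0.849 ± 0.511 FPKM against 17.6 ± 4.58, and control at 30.3. The sulfotransferase SULT2A1 lay at 0.611 ± 0.549 against 17.7 ± 5.57 and the glucuronosyltransferase UGT2B4 at 8.94 ± 6.87 against 82.2 ± 22.9. CYP2B6, CYP3A5, CYP3A7 and CYP2A6 had log2 differences of -2.20, -1.80, -1.71 and -1.56. GSTA1, CYP2C19, UGT1A1, UGT1A3, SLCO1B1, ABCC2, ABCB1 and EPHX1 were lower too, from -3.12 for GSTA1 to -0.86 for EPHX1. Reads of GSTA1 and GSTA2, of CYP2C genes and of UGT1A genes, which share exons, may be split between near-identical copies.

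With isoxaflutole, UGT1A1 and CYP3A5 lay above all control libraries, and CYP2B6 overlapped them. Levels were 160.0 ± 52.3 against 58.4 ± 17.4 for UGT1A1, at 16.3 ± 5.2 against 6.6 ± 2.24 for CYP3A5 and at 4.92 ± 1.12 against 2.76 ± 1.6 for CYP2B6, with no test. The members higher with quizalofop-p-ethyl were POR, the reductase that feeds electrons to P450 enzymes, at 199 ± 43.5 against 43.1 ± 24.7 (log2 difference 2.35, SE 0.36, adjusted p = 0.000493), and ALAS1, the first enzyme of haem synthesis, at 32.9 ± 3.59 against 23.1 ± 1.86 (log2 difference 0.49, SE 0.097, adjusted p = 0.00246). TSKU and CES2 did not pass, with log2 differences of 0.022 (95% interval -0.21 to 0.25) and -0.045 (-0.31 to 0.22). TSKU lay at 72.9 ± 5.83 and 72.1 ± 9.44 FPKM with the compounds and at 31.9 ± 2.44 in control. The calls of UGT1A1 and SLCO1B1 were lost with no filter, that of UGT1A1 also without any 1 of the isoxaflutole libraries, and those of ALAS1, ABCC2 and ABCB1 with all 50 libraries. UGT1A1 lay at 0.982 FPKM in quizalofop-p-ethyl library 5 and at 40.2 to 61.4 in the other 4, and without library 5 its log2 difference was -1.65 in place of -2.58.

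AHR targets divided. CYP1A1 held 109, 69.3, 90.4, 49.5 and 28.9 FPKM with quizalofop-p-ethyl and 13.9, 6.99, 2.77, 3.15 and 2.64 with isoxaflutole, against 0.711, 0.589, 0.463, 0.462 and 0.431 in control (chromosome 15, 74719542 to 74725610). All quizalofop-p-ethyl libraries were above all isoxaflutole libraries, of which library 1 was the highest, and these were above all control libraries (log2 difference 3.45, SE 0.45, adjusted p = 0.000179 between the compounds). CYP1B1 held 104, 98.3, 109.8, 88.8 and 74.4 with quizalofop-p-ethyl and 15.8, 12.3, 9.15, 9.45 and 10.1 with isoxaflutole, again without overlap (log2 difference 2.97, SE 0.16, adjusted p = 5.56e-07). TIPARP, a repressor of AHR, was higher at 13.4 ± 4.33 against 4.41 ± 0.641, and ARNT, the partner of AHR, at 7.71 ± 1.06 against 2.99 ± 1.74 (adjusted p = 0.000244 and 0.00281). ARNT turned to lower, at a log2 difference of -0.46, with unnamed transcripts of its locus added, which held 55.4% of the FPKM there. Lower were UGT1A6 at 37.2 ± 20.2 against 161 ± 46.8, the aldehyde dehydrogenase ALDH3A1 at 45.1 ± 19.4 against 179 ± 31.6 and the quinone reductase NQO1 at 1.14 ± 0.226 against 2.6 ± 0.39. CYP1A2, AHRR and AHR itself did not pass, with intervals of -1.13 to 0.59, -0.38 to 0.93 and -0.64 to -0.047 on the log2 scale. In counts, 4 of 10 tested members were higher and 3 lower, with a median of 0.0036, against 14.5% and 21.3% of all genes tested.

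Other enzymes and transporters of foreign compounds were lower with quizalofop-p-ethyl or did not pass. Of 30 other phase I and II enzymes 23 were lower and none higher (median -1.95), and of 11 hepatic transporters 8 were lower and none higher (median -0.92, 4 lower with all 50 libraries). In these lists 5 enzymes, ADH6 among them, and 1 transporter, ABCC6, were under 1 FPKM in every quizalofop-p-ethyl library. They passed the filter through isoxaflutole alone. UGT2B15, which conjugates steroids, lay at 6.9 ± 4.37 against 150.3 ± 43 FPKM (log2 difference -4.51, SE 0.52, adjusted p = 7.05e-05). The alcohol dehydrogenases ADH1A and ADH6 lay at 7.49 ± 6.48 against 49.7 ± 15.7 and at 0.578 ± 0.406 against 8.94 ± 1.57, and CYP2E1, which oxidises ethanol, at 0.88 ± 0.888 against 12.6 ± 4.06. Of the transporters, ABCC6 lay at 0.675 ± 0.243 against 8.13 ± 3.004. One phase II enzyme was higher and 22 were lower with median-ratio scaling. Fewer cells of a type and less RNA per cell cannot be told apart in these cultures, here and below.

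**Figure D1:**
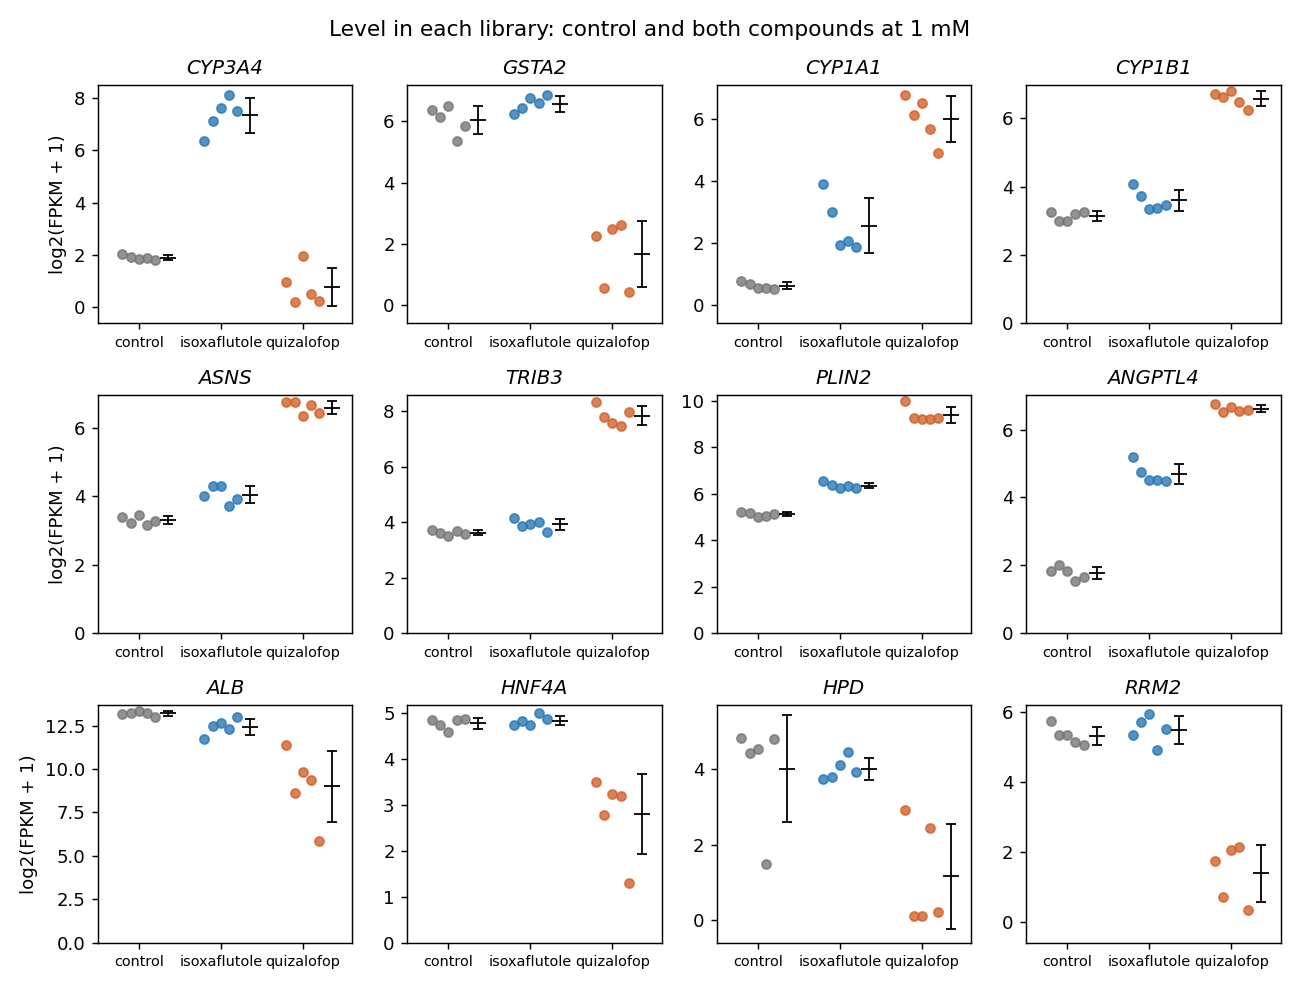
Level of 12 genes in each library of control, isoxaflutole at 1 mM and quizalofop-p-ethyl at 1 mM. The vertical axis is log2(FPKM + 1), points are libraries in the order 1 to 5, and black bars are the mean and SD of 5 libraries. CYP3A4 is high with isoxaflutole alone among the groups drawn, CYP1A1, CYP1B1, ASNS, TRIB3, PLIN2 and ANGPTL4 are highest with quizalofop-p-ethyl, and GSTA2, ALB, HNF4A and RRM2 are lowest with it.

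Genes of lipid storage and of fatty acid oxidation each went both ways. PLIN2, the coat protein of lipid droplets, held 1033, 606, 596, 591 and 621 FPKM with quizalofop-p-ethyl and 92.2, 83.3, 75.4, 79.4 and 74.6 with isoxaflutole, against 33.7 ± 2.11 in control (chromosome 9, 19108375 to 19149290). There is no overlap, and both lay above all control libraries (log2 difference 3.04, SE 0.15, adjusted p = 4.34e-07 between the compounds). Of 15 tested lipid droplet genes 4 were higher and 4 lower, against 14.5% and 21.3% of all genes tested. G0S2, which restrains triglyceride breakdown, lay at 47.6 ± 13.7 against 8.2 ± 1.47, the fatty acid carrier FABP4 at 29.5 ± 16.6 against 4.83 ± 1.55 and the phosphatase LPIN1 at 13.2 ± 1.51 against 8.1 ± 1.56. The droplet fusion protein CIDEC went the other way, at 0.857 ± 0.484 against 5.92 ± 1.16, a level above its control of 2.33 ± 0.39. HSD17B11, PLIN3 and BSCL2 were lower by less, with log2 differences of -1.02, -0.55 and -0.53. The calls of LPIN1 and PLIN3 were lost with all 50 libraries, and with 49 libraries, without library 5 of quizalofop-p-ethyl at 10 uM, 5 members were higher and 8 lower.

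In the list of fatty acid oxidation and PPARalpha, 9 of 31 tested genes were higher with quizalofop-p-ethyl and 15 lower, with a median of -0.40. ANGPTL4, a secreted inhibitor of lipoprotein lipase, held 108, 91.4, 100.5, 93 and 95 FPKM with quizalofop-p-ethyl and 35.2, 25.7, 21.7, 21.6 and 21.4 with isoxaflutole, against 2.45 ± 0.442 in control. Both compounds lay above control without overlap, and quizalofop-p-ethyl above isoxaflutole (log2 difference 1.94, SE 0.13, adjusted p = 2.78e-06). PDK4, a kinase that restrains pyruvate oxidation, showed the same order at 55.7 ± 16.1, 12.3 ± 1.94 and 5.19 ± 1.03 (log2 difference 2.05, SE 0.20, adjusted p = 2.57e-05). FGF21, a hormone released by stressed or fasting liver, was listed at 0 in all isoxaflutole, control and mesotrione libraries at 1 mM. With quizalofop-p-ethyl it held 12.2, 7.56, 2.87, 6.39 and 4.79 FPKM (adjusted p = 2.02e-05), and it passed the filter through that group alone. TXNIP and ACSL3 were higher too, at 36.5 ± 6.35 against 11 ± 1.68 and at 38.3 ± 10.3 against 19.9 ± 1.16.

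Lower with quizalofop-p-ethyl were enzymes of peroxisomes. EHHADH, ACAA1 and HSD17B4, which oxidise fatty acids in peroxisomes, lay at 6.1 ± 2.06 against 23.8 ± 5.11, at 34.5 ± 7.001 against 90.1 ± 10.1 and at 23.2 ± 4.54 against 48 ± 6.25. FABP1, the fatty acid carrier of hepatocytes, held 54.6, 8.81, 33.9, 36.5 and 0.895 with quizalofop-p-ethyl and 116, 78, 96, 99.3 and 96.4 with isoxaflutole, without overlap (log2 difference -2.53, SE 0.78, adjusted p = 0.0266). Its call was lost with no filter and without isoxaflutole library 1, 3, 4 or 5 or quizalofop-p-ethyl library 2. Lost with no filter, too, was that of the pantetheinase VNN1 (-2.76). CD36, which takes up fatty acids, was higher (1.63), but its groups overlap and its call was lost with no filter too. ACADM, ACADL and HADHA, of mitochondrial oxidation, did not pass, with log2 differences of -0.56, -0.36 and 0.26.

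The human counterparts of the quizalofop-p-ethyl target did not pass. ACACA held 23.2, 21.5, 14.3, 24 and 15.9 FPKM with quizalofop-p-ethyl and 14.9, 18.7, 11.9, 13.9 and 14.7 with isoxaflutole, and the groups overlap (log2 difference 0.38, 95% interval 0.017 to 0.74, adjusted p = 0.0966). ACACB lay at 6.97 ± 4.56 against 6.32 ± 2.88 (95% interval -0.96 to 0.96), FASN at 77.8 ± 28.7 against 56.6 ± 12.6 (-0.27 to 1.03) and ACLY at 48.1 ± 6.44 against 48.5 ± 4.57 (-0.26 to 0.22). ACACA passed with median-ratio scaling and without quizalofop-p-ethyl library 3, and FASN without library 5. Of 16 tested genes of fatty acid synthesis, none was higher (14.5% of all genes tested) and 3 were lower (21.3%). These were the elongase ELOVL2 at 0.593 ± 0.392 against 4.15 ± 0.835 (log2 difference -1.71, SE 0.19, adjusted p = 5.77e-05), the regulator SREBF1 at 17.5 ± 7.05 against 32.1 ± 2.4 and the lipase PNPLA3 at 4.65 ± 1.94 against 7.9 ± 1.46. SCD, ELOVL5, ELOVL6, FADS1, FADS2, MLXIPL, INSIG2, SLC25A1 and ACSS2 did not pass, with log2 differences of 0.93, -0.21, 0.26, 0.095, -0.065, -0.61, 0.53, -0.16 and -0.22. SCD, which makes monounsaturated fatty acids, held 941, 549, 625, 569.7 and 135 FPKM against 217, 267, 263, 258 and 244, with library 5 alone below isoxaflutole. It passed as higher with all 50 libraries, with 49, and without quizalofop-p-ethyl library 5 (log2 difference 1.39). With all 50 libraries SCD was the 1 member higher and 1 was lower, and the call of PNPLA3 was lost under several alternatives.

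Cholesterol synthesis genes moved little, with 4 of 24 higher and 2 lower (median 0.26), against 14.5% and 21.3% of all genes tested. Quizalofop-p-ethyl library 5 was the lowest of its group for 21 of the 24, and without it 8 were higher and 2 lower. MVD and LSS, enzymes of the pathway, were higher at 28.4 ± 7.42 against 15.4 ± 3.52 and at 31.4 ± 2.87 against 21.6 ± 4.03. Both of these calls were lost with all 50 libraries, and the count of calls ran from 1 with all 50 to 11 with 49. Lipoprotein genes differed more, with 1 of 13 higher and 10 lower (median -2.21). Of these 13, 2 were under 1 FPKM in every quizalofop-p-ethyl library. APOA1, the main protein of HDL, held 318, 58.1, 136, 88.7 and 11.4 FPKM with quizalofop-p-ethyl and 1148, 1448, 1625, 1749 and 1742 with isoxaflutole (log2 difference -4.29, SE 0.68, adjusted p = 0.000625). The groups do not overlap, and quizalofop-p-ethyl library 5 was the lowest. APOC3, APOH and APOC1 lay at 27.7 ± 27.7 against 359 ± 103, at 28.2 ± 26.2 against 246 ± 76.1 and at 92.3 ± 92.2 against 628 ± 248. APOB, the scaffold of VLDL, held 63, 27, 41.2, 31.8 and 0.0413 against 171, 110.2, 93.8, 118 and 189, with its lowest value in library 5, and its call was lost with a pseudocount of 0.1, with no filter, and without any 1 isoxaflutole library or quizalofop-p-ethyl library 2. Without library 5 its log2 difference was -1.74 in place of -2.79. ABCG8, which exports sterols, was listed at 0 in all 5 quizalofop-p-ethyl libraries and at 3.89, 5.05, 6.14, 8.89 and 6.21 with isoxaflutole. The cholesterol exporter ABCA1 was higher at 27.2 ± 9.89 against 14.9 ± 2.31, a call lost with no filter.

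The 5 tested genes of tyrosine degradation, the pathway of the isoxaflutole target, were each lower with quizalofop-p-ethyl (median -1.60). Of these 5, 1 was under 1 FPKM in every quizalofop-p-ethyl library. HPD, the human counterpart of that target, held 6.58, 0.0864, 0.085, 4.45 and 0.159 FPKM with quizalofop-p-ethyl and 12.4, 12.8, 16.3, 21 and 14.3 with isoxaflutole (chromosome 12, 121839527 to 121863596). The groups do not overlap, and quizalofop-p-ethyl libraries 2, 3 and 5 were near 0 (log2 difference -2.84, SE 0.56, adjusted p = 0.00242). In control it held 27.2, 20.7, 22.1, 1.83 and 26.8. Isoxaflutole lay within that range only because of the control library at 1.83. Its value of 21 alone reached the other control libraries, and its other values lay below them. With unnamed transcripts of the locus added its log2 difference was -1.87. HGD, the step after HPD, lay at 7.33 ± 1.68 against 25.8 ± 7.81 (adjusted p = 0.000327). FAH and GSTZ1, the last steps, lay at 39 ± 2.97 against 52.5 ± 8.02 and at 14.9 ± 1.48 against 19.1 ± 2.48 (adjusted p = 0.0134 and 0.0382). The latter calls were lost with median-ratio scaling and with all 50 libraries, leaving 3.

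Of 13 tested urea cycle and amino acid degradation genes 6 were lower and 1 higher (median -0.65), and of 7 gluconeogenesis genes 2 were lower and 3 higher. Over all genes tested 21.3% were lower and 14.5% higher. AGXT, which clears glyoxylate, lay at 1.5 ± 2.07 against 12.1 ± 3.59, GLDC, which cleaves glycine, at 2.93 ± 0.962 against 14.1 ± 1.31 and TDO2, which degrades tryptophan, at 1.1 ± 0.312 against 6.9 ± 2.93. CBS, of cysteine synthesis, was higher at 20.9 ± 1.58 against 10.4 ± 2.29 (log2 difference 0.96, SE 0.14, adjusted p = 0.000294), as were the transaminases GPT2 and GOT1 at 13.9 ± 1.07 against 4.31 ± 1.85 and at 83.3 ± 14.9 against 39 ± 2.84, and PCK2 at 53 ± 5.48 against 19.3 ± 3.31. The glucose 6-phosphate carrier SLC37A4 was lower at 3.37 ± 1.34 against 11.2 ± 5.3 and pyruvate carboxylase, PC, at 10.9 ± 2.07 against 19.2 ± 4.87. CPS1 and ASS1, of the urea cycle itself, did not pass.

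Genes of the integrated stress response were higher with quizalofop-p-ethyl, 25 of 28 tested and none lower, with a median of 2.12 against -0.04 for all genes. TRIB3, a pseudokinase that ATF4 and DDIT3 induce, held 327, 221, 193, 178 and 249 FPKM with quizalofop-p-ethyl and 16.7, 13.6, 14.4, 15.1 and 11.4 with isoxaflutole (log2 difference 3.92, SE 0.16, adjusted p = 1.3e-07). CHAC1, which degrades glutathione, held 33, 30.6, 28.3, 25.4 and 39.9 against 4.24, 3.58, 3.19, 4.24 and 2.19 (log2 difference 2.86, SE 0.16, adjusted p = 8.14e-07). Neither gene showed overlap between the compounds, and 4 of 5 isoxaflutole libraries lay above all control libraries, whose levels were 11.3 ± 0.774 and 1.84 ± 0.578. SLC3A2, the shared chain of amino acid exchangers, and GDF15, a secreted stress hormone, lay at 541 ± 79.6 against 62.2 ± 7.97 and at 1238 ± 661 against 130.2 ± 23.3 FPKM. SLC7A1, a carrier of arginine, lay at 19.6 ± 6.74 against 2.31 ± 1.81.

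Members outside the naming rule are given because the list turns on them, chosen after their values were seen. ASNS, which makes asparagine and whose promoter is printed above, held 106, 108, 80.5, 102 and 85.2 FPKM with quizalofop-p-ethyl and 14.9, 18.5, 18.5, 12.2 and 14.3 with isoxaflutole, against 9.5, 8.3, 9.85, 8.01 and 8.68 in control. Every quizalofop-p-ethyl library was above every isoxaflutole library, and these above every control library (log2 difference 2.55, SE 0.13, adjusted p = 5.56e-07 between the compounds). ATF4 itself lay at 292 ± 32.7 against 62.4 ± 10.4, its partner DDIT3 at 16.2 ± 6.25 against 1.9 ± 1.11 and the serine enzymes PSAT1 and PHGDH at 124 ± 14.3 against 25.5 ± 3.13 and at 69.5 ± 3.51 against 29.5 ± 5.61. CEBPB did not pass, with 2.88 FPKM in quizalofop-p-ethyl library 3 against 78 to 119 in the other 4, and passed without it (log2 difference 2.57). With all 50 libraries 23 members were higher.

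Of 20 cytosolic tRNA synthetases 14 were higher, against 14.5% of all genes tested, and none lower (median 0.97). GARS, YARS and WARS, which charge tRNA with glycine, tyrosine and tryptophan, lay at 248 ± 45.7 against 44.8 ± 7.72, at 128 ± 15 against 25.2 ± 2.89 and at 84.9 ± 11.6 against 19.8 ± 1.76. DARS, HARS and QARS did not pass, with intervals of 0.032 to 0.55, -0.13 to 0.31 and -0.42 to 0.087. The groups do not overlap for 14 members, against 28.5% of all genes tested. Of 25 ER chaperones and folding genes 8 were higher and 1 lower (median 0.34). Of all genes tested 35.8% were called, a share near that of this list, and 14.5% were higher. HSPA5, the main chaperone of the ER, held 1414, 327, 388, 327 and 506 FPKM with quizalofop-p-ethyl and 142, 158, 161, 150.0 and 154 with isoxaflutole, with library 1 of quizalofop-p-ethyl far above the others (log2 difference 1.69, SE 0.35, adjusted p = 0.00319). Library 1 was the highest quizalofop-p-ethyl library for 22 of the 25 members. Without it 8 members were higher and 8 lower, the latter with PDIA3 and PDIA4, which form disulfide bonds. The sensor ERN1 lay at 19.9 ± 6.72 against 6.19 ± 1.27, and the calcium-binding chaperone CALR was lower at 329.6 ± 95.7 against 602 ± 21.9.

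Targets of NRF2, the factor of the oxidant response, went both ways, with 11 of 26 higher and 5 lower, against 14.5% and 21.3% of all genes tested. SLC7A11, the cystine importer, lay at 48.8 ± 5.85 against 6.8 ± 0.951 FPKM (log2 difference 2.68, SE 0.11, adjusted p = 1.51e-07), the sulfiredoxin SRXN1 at 497 ± 89.1 against 108 ± 9.05, and the subunits of glutathione synthesis GCLM and GCLC at 71.4 ± 13.7 against 23.3 ± 4.34 and at 94.3 ± 15.3 against 44.8 ± 3.97. SLC7A11 is also in the stress response list. Lower were the peroxiredoxin PRDX1 at 176 ± 23.6 against 369 ± 26.1 and the carbonyl reductase CBR1 at 22.5 ± 3.72 against 41.9 ± 1.69. The other lower members were ABCC2, EPHX1 and NQO1, which are given above with other lists. TXNRD1 and TKT did not pass. GPX2, a glutathione peroxidase and among the 15 genes most lower, held 3.63, 1.04, 2.9, 2.53 and 0 with quizalofop-p-ethyl and 96.8, 90.3, 81.3, 92.3 and 89.3 with isoxaflutole (log2 difference -5.10, SE 0.36, adjusted p = 2.91e-06).

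Of 15 heat shock genes, most of them cytosolic, 5 were higher and 1 lower (3 called with all 50 libraries). The share called was near the 35.8% of all genes tested. Of 6 metallothionein genes 2 were higher and 1 lower, against 14.5% and 21.3% of all genes tested. The heat shock factor HSF1 lay at 45.4 ± 6.48 against 25.9 ± 2.72, the mitochondrial chaperone HSPD1 at 149 ± 15.6 against 96.6 ± 13.2 and the small chaperone HSPB1, which was lower, at 164 ± 29.2 against 324 ± 71.8. HSPA1A and HSPA1B, near-identical copies, did not pass. MT1E was lower at 7.09 ± 3.15 against 19.98 ± 1.58 and the zinc exporter SLC30A1 higher at 15.8 ± 1.36 against 8.83 ± 0.843.

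**Figure D2:**
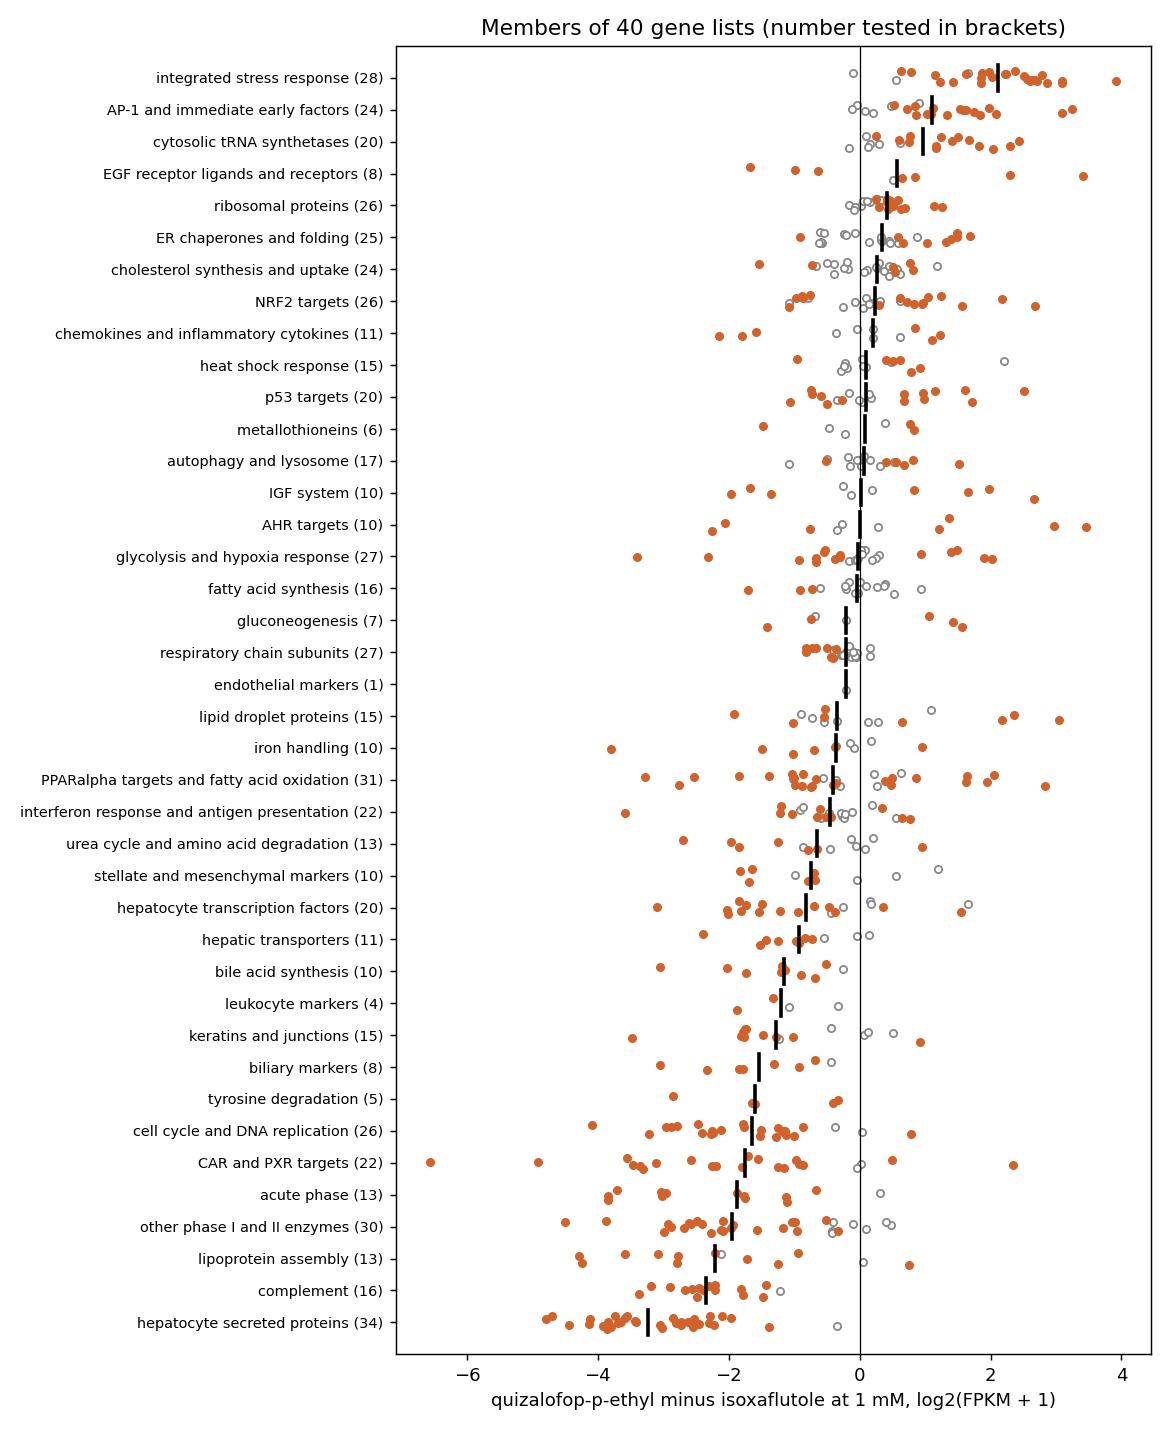
Difference between the compounds at 1 mM for each tested member of 40 gene lists. The horizontal axis is the mean log2(FPKM + 1) with quizalofop-p-ethyl less that with isoxaflutole, filled points passed limma's test, open points did not, black bars are list medians, and height within a list has no meaning. The medians run from -3.23 for hepatocyte secreted proteins to 2.12 for the integrated stress response.

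Nearly all tested genes of plasma proteins that hepatocytes secrete were lower with quizalofop-p-ethyl. Of 34 tested secreted proteins of hepatocytes 33 were lower and none higher, with a median of -3.23. Of 16 complement genes 15 were lower (median -2.35) and of 13 acute phase genes 12 (median -1.88). ALB, the gene of albumin, held 2719, 386, 899.7, 663 and 56.6 FPKM with quizalofop-p-ethyl and 3358, 5662, 6434, 4983 and 8214 with isoxaflutole, against 9286, 9681, 10318, 9597 and 8217 in control. The compounds do not overlap, library 1 being the highest and library 5 the lowest with quizalofop-p-ethyl, and isoxaflutole library 1 the lowest of its group (log2 difference -3.42, SE 0.81, adjusted p = 0.00746). TTR, the carrier of thyroid hormone, held 188, 20.6, 58.4, 41.9 and 3.73 against 538, 915, 1020.1, 1046 and 1131 (log2 difference -4.71, SE 0.78, adjusted p = 0.00083). SERPINA7, another such carrier, lay at 1.45 ± 0.934 against 64.4 ± 13.8, the plasmin inhibitor SERPINF2 at 1.41 ± 1.77 against 41.5 ± 5.42, the fibrinogen chain FGB at 103 ± 116 against 1017 ± 120.5 and the adhesion protein VTN at 87.6 ± 82.3 against 1017 ± 132. F2, the gene of prothrombin, did not pass. Unnamed transcripts held 94.4% of the FPKM at its locus, and with them added it was lower (log2 difference -3.33, adjusted p = 0.000124). HABP2, a protease of plasma among the 15 genes most lower, lay at 9.07 ± 7.33 against 222 ± 27.9 (log2 difference -4.96, SE 0.60, adjusted p = 0.000104).

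In the complement list, C6 lay at 0.644 ± 1.21 against 13.8 ± 3.04, CFB at 69.1 ± 75.8 against 421 ± 58.8 and CFI at 10.3 ± 8.89 against 66.2 ± 9.69, and the near-identical C4A and C4B are uncertain. In the acute phase list, SERPINA3 lay at 10.3 ± 9.76 against 121 ± 27.2, FGL1 at 15.9 ± 18.2 against 136 ± 17.8 and LBP, which binds endotoxin, at 10.5 ± 11.8 against 68.3 ± 23.6. HP, which binds haemoglobin and has the paralog HPR, lay at 40.2 ± 53.6 against 354 ± 116, and LCN2 did not pass at 36.5 ± 5.61 against 41.8 ± 49. The secreted proteins moved together between libraries. Quizalofop-p-ethyl library 1 was the highest and library 5 the lowest of its group for 29 of the 34 genes (85.3%), as for 18% of all genes tested. Isoxaflutole library 1 was the lowest of its group for 20 of the 34. The counts of lower genes in the secreted, complement and acute phase lists were 33, 15 and 12 without library 1 and 33, 15 and 10 without library 5. Sizes moved more, ALB from a log2 difference of -3.42 to -4.02 without library 1 and -2.63 without library 5, and TTR from -4.71 to -5.32 and -3.99. APOA1, APOC3, APOH, VTN, FGB, FGA, FGL1, GSTA1 and UGT2B4 also moved by over 1.5-fold without library 5, to -3.63, -3.64, -2.96, -3.50, -3.38, -1.87, -3.09, -2.40 and -2.88, as did FABP1 and VNN1, to -1.74 and -1.94, each passing there. FGA lost its call without isoxaflutole library 1, 4 or 5. FGB and HP moved to -4.74 and -4.47 without quizalofop-p-ethyl library 1.

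**Figure D3:**
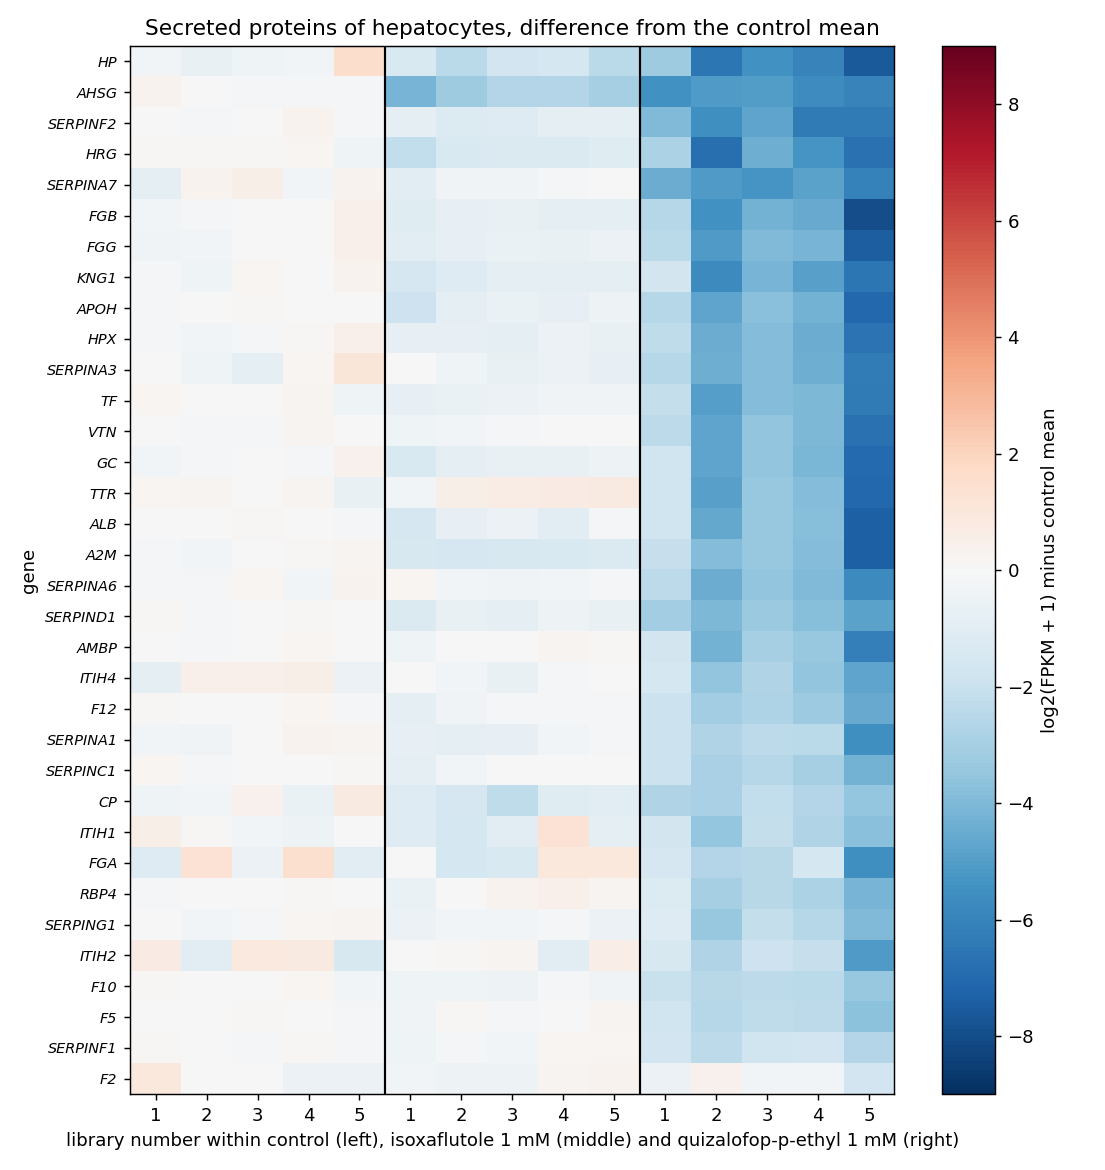
Secreted proteins of hepatocytes in each library of control, isoxaflutole at 1 mM and quizalofop-p-ethyl at 1 mM. Rows are the 34 tested genes, columns are libraries, and colour is log2(FPKM + 1) less the mean of the 5 control libraries. The 5 right columns are the lowest in nearly every row, with library 1 of quizalofop-p-ethyl nearest to control and library 5 farthest.

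Factors that hold the hepatocyte state were lower as well, 13 of 20 tested, with PPARG and PPARD higher (median -0.82). The summed FPKM of this list overlapped between the groups. It ran from 146 to 245 with quizalofop-p-ethyl, from 204 to 259 with isoxaflutole and from 218 to 257 in control. HNF4A, a master factor of hepatocytes, held 10.3, 5.94, 8.52, 8.24 and 1.49 FPKM with quizalofop-p-ethyl and 26, 27.7, 25.9, 31.2 and 28.3 with isoxaflutole (log2 difference -2.03, SE 0.35, adjusted p = 0.00103). No values overlap, and library 5 was again the lowest. ONECUT1, PROX1, FOXA3 and FOXA1 lay at 1.74 ± 1.26 against 20.6 ± 3.52, at 1.65 ± 0.899 against 9.32 ± 1.3, at 2.47 ± 1.18 against 10.9 ± 1.77 and at 1.38 ± 0.175 against 7.46 ± 1.07. PPARG, the adipogenic receptor, was higher at 25.9 ± 3.06 against 8.22 ± 0.9998 (log2 difference 1.54, SE 0.11, adjusted p = 3.22e-06). FOXA2 and PPARA did not pass, PPARA with an interval of -0.40 to 0.72. Of 10 bile acid synthesis genes 9 were lower (median -1.16), among them BAAT, which conjugates bile acids, at 5.14 ± 3.07 against 42.1 ± 10.5, the receptor FGFR4 at 8.03 ± 2.9 against 34.8 ± 2.92 and the bile acid receptor NR1H4 at 1.4 ± 0.978 against 6.42 ± 0.181. The call of PPARD was lost with no filter and with all 50 libraries.

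Markers of other cell types were lower or did not pass beside the hepatocyte genes. Of 8 tested biliary markers 7 were lower (median -1.54), with KRT19, a keratin of bile ducts, at 118 ± 29.5 against 399.5 ± 63 and CD24 at 7.36 ± 3.25 against 63.5 ± 11.4. The summed FPKM of the biliary list ran from 103 to 217 with quizalofop-p-ethyl, from 597 to 706 with isoxaflutole and from 734 to 828 in control. Of 10 stellate and mesenchymal markers 6 were lower, SPARC and COL3A1 among them at 2.67 ± 0.713 against 12.5 ± 4.88 and at 0.385 ± 0.25 against 3.47 ± 0.746. COL3A1, and LYZ of the leukocyte list below, were under 1 FPKM in every quizalofop-p-ethyl library and passed the filter through isoxaflutole alone. The stellate and mesenchymal list summed to 353 to 604 FPKM, 697 to 1232 and 935 to 1445. In named transcripts, 6 of its 18 members, VIM and COL1A2 among them, stayed under 1 FPKM in all 10 libraries. With unnamed transcripts of the loci added, 1 member was higher and 7 were lower. Leukocyte markers were at 3.995 to 16.7, 14.5 to 37.8 and 12.04 to 41.1 FPKM in sum, with PTPRC under 1 FPKM in all 10 libraries and MS4A1 and VSIG4 at 0, and 2 of 4 were lower, CD14 and LYZ. Of 10 endothelial markers 8 stayed under 1 FPKM in all 10 libraries, PECAM1 among them, and EGFL7, the 1 tested, did not pass.

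Cell cycle genes were lower with quizalofop-p-ethyl, 23 of 26 tested, with 1 higher (median -1.65). RRM2, the subunit that limits supply of DNA building blocks and whose promoter is printed above, held 2.33, 0.641, 3.12, 3.39 and 0.259 FPKM with quizalofop-p-ethyl and 39.3, 51.8, 60.1, 29 and 45.2 with isoxaflutole (log2 difference -4.09, SE 0.36, adjusted p = 1.18e-05). The compounds do not overlap, and control, at 52.4, 39.6, 39.4, 34.1 and 32.5, lay inside the range of isoxaflutole. TOP2A, PLK1, AURKB and BIRC5, which act in mitosis, lay at 1.07 ± 0.776 against 17.6 ± 3.96, at 0.517 ± 0.177 against 10.8 ± 1.72, at 0.962 ± 0.499 against 13.2 ± 1.3 and at 0.521 ± 0.366 against 9.4 ± 1.8. CCND1, the cyclin of growth factor signals, was higher at 24.4 ± 3.24 against 13.8 ± 2.36 (log2 difference 0.79, SE 0.13, adjusted p = 0.000716). Without any 1 of the isoxaflutole libraries 17 or 18 were lower, since 5 members under 1 FPKM in every quizalofop-p-ethyl library then fell below the filter. Replication histones stood among the 15 genes most lower. HIST1H1B, a linker histone, held 1.82, 2.12, 1.77, 2.8 and 1.14 against 66.4, 56, 70.1, 43.2 and 65 (log2 difference -4.39, SE 0.17, adjusted p = 1.3e-07), and HIST1H2AH, HIST1H3B, HIST1H3C and HIST1H2BO had log2 differences of -5.65, -4.94, -4.43 and -4.43. Without quizalofop-p-ethyl library 4 that of HIST1H2AH was -6.27. Core histones have near-identical copies and are uncertain.

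Targets of p53 went both ways, with 8 of 20 higher and 6 lower, against 14.5% and 21.3% of all genes tested. SESN2, PMAIP1 and PLK3 lay at 100.2 ± 19.5 against 16.5 ± 1.47, at 17 ± 3.74 against 4.43 ± 0.824 and at 19 ± 5.97 against 5.43 ± 1.17, and SESN2 is also in the stress response list. TP53INP1 and DDB2 were lower at 11.3 ± 3.06 against 24.6 ± 5.57 and at 18.3 ± 1.48 against 31.3 ± 2.93. BBC3, GADD45A, TNFRSF10B, CDKN1A and AEN were higher by less, with log2 differences of 1.15, 0.98, 0.96, 0.67 and 0.67. MDM2, BAX, FAS and RRM2B did not pass, with intervals of -0.75 to 0.83, -0.43 to 0.095, -0.26 to 0.23 and -0.16 to 0.49. With all 50 libraries 5 members were higher and 1 lower.

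Immediate early genes and their feedback regulators were higher with quizalofop-p-ethyl, 18 of 24 tested and none lower (median 1.11). MAFF, a small Maf factor, held 63.5, 25.9, 23.8, 22.3 and 49.1 FPKM with quizalofop-p-ethyl and 3.38, 2.89, 2.28, 2.35 and 2.5 with isoxaflutole (log2 difference 3.25, SE 0.28, adjusted p = 1.01e-05), without overlap. The phosphatase DUSP5, the AP-1 factors FOSL1 and FOSB, and ATF3, which is also in the stress response list, lay at 37.6 ± 21.1 against 3.2 ± 0.865, at 32.8 ± 15.8 against 6.46 ± 1.51, at 6.28 ± 3.34 against 0.858 ± 0.251 and at 67.5 ± 52.4 against 12.3 ± 1.41. With unnamed transcripts of the locus added, the log2 difference of ATF3 was 3.15 in place of 1.97. FOS and FOSL2 did not pass, with log2 differences of 0.48 and 0.20. Among ligands of the EGF receptor, AREG held 75.3, 21.6, 23.4, 18.9 and 32.6 against 2.34, 2.53, 1.8, 1.93 and 1.11 (log2 difference 3.41, SE 0.33, adjusted p = 2.29e-05), EREG lay at 8.85 ± 4.58 against 0.892 ± 0.19, HBEGF at 5.23 ± 1.79 against 2.37 ± 0.403 and TGFA at 15.6 ± 4.92 against 9.4 ± 1.45. The receptors ERBB3 and ERBB2 were lower at 9.33 ± 1.05 against 31.9 ± 3.71 and at 15.5 ± 2.48 against 31.8 ± 6.86, as was EGF itself at 0.984 ± 0.239 against 2.14 ± 0.733, and EGFR did not pass. In all, 4 of 8 members were higher and 3 lower. Of 11 chemokines and cytokines 3 were higher and 3 lower, against 14.5% and 21.3% of all genes tested. Among them were the cytokine IL6 at 2.27 ± 0.998 against 0.376 ± 0.257 and the monocyte attractant CCL2 at 3.7 ± 1.51 against 19.5 ± 5.59. IL6 was under 1 FPKM in every isoxaflutole library and passed the filter through quizalofop-p-ethyl alone.

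The other genes most higher with quizalofop-p-ethyl belong to no single list. UNC5B, a netrin receptor, held 14.8, 25.1, 19.2, 17 and 20.6 FPKM with quizalofop-p-ethyl and 0.0981, 0.0772, 1.83, 0.0706 and 0.132 with isoxaflutole (log2 difference 3.92, SE 0.27, adjusted p = 2.91e-06), and its log2 difference was 2.89 with unnamed transcripts of the locus added. NGFR, a receptor of nerve growth factor, held 16.8, 17.8, 13.9, 15.7 and 25 against 0.471, 0.446, 0.584, 0.28 and 0.532 (log2 difference 3.66, SE 0.15, adjusted p = 1.3e-07), and TAC1, the precursor of substance P, 21, 17.5, 16, 15 and 15.4 against 0.751, 0.327, 0.347, 0.744 and 0.535 (log2 difference 3.55, SE 0.14, adjusted p = 1.3e-07). None of these showed overlap, and isoxaflutole reached no more than 1.83 FPKM in any of them. NGFR and TAC1, and the phosphatase gene DUSP15 after them, were under 1 FPKM in every isoxaflutole library and passed the filter through quizalofop-p-ethyl alone. UPP1, which splits uridine, held 324, 113, 108, 70.2 and 287 against 15.9, 5.18, 11.1, 12.8 and 13, ARG2, the mitochondrial arginase, lay at 22.2 ± 6.04 against 1.4 ± 0.676 and the phosphatase DUSP15 at 9.21 ± 3.12 against 0.141 ± 0.0754. RN7SL5P, a pseudogene of the signal recognition particle RNA with many copies, held 2340.1, 282, 6423, 6199 and 7659 FPKM with quizalofop-p-ethyl and 149, 147, 191, 180.1 and 133 with isoxaflutole (log2 difference 4.18), and its call was lost with unnamed transcripts added (0.77). Without quizalofop-p-ethyl library 2 its log2 difference was 5.02. SNORA73A, a small nucleolar RNA among those most lower, held 0.41, 5.75, 1.21, 0.2004 and 2.3 against 373, 23.6, 819, 7.25 and 6.93, with isoxaflutole libraries 1 and 3 far above the others. Its call was lost with no filter, and its log2 difference was -3.81, -3.52, -5.18 and -5.20 without isoxaflutole library 1, 3, 4 and 5 in turn, in place of -4.50.

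Genes of glucose use and hypoxia divided, 5 of 27 being higher and 10 lower, against 14.5% and 21.3% of all genes tested. VEGFA, the vessel growth factor that ATF4 and hypoxia induce, lay at 87.3 ± 15.7 against 20.8 ± 3.6, the hexokinase HK1 at 4.29 ± 0.867 against 0.412 ± 0.196 and the glucose carrier SLC2A1 at 49 ± 12.9 against 17.8 ± 3.66. CA9, a carbonic anhydrase that hypoxia induces, held 0.155, 0.216, 0.31, 0.501 and 0.0948 FPKM with quizalofop-p-ethyl, 9.14, 12.2, 11.4, 15.7 and 13.2 with isoxaflutole and 42.5, 45.1, 45.7, 43.8 and 21 in control. The 3 groups do not overlap, isoxaflutole lying between (log2 difference -3.40, SE 0.15, adjusted p = 2.27e-07 between the compounds). CA9 was under 1 FPKM in every quizalofop-p-ethyl library and passed the filter through isoxaflutole alone. HK1 was under 1 FPKM in every isoxaflutole library and passed it through quizalofop-p-ethyl alone. PFKFB3, which speeds glycolysis, was lower at 7.21 ± 2.93 against 36.7 ± 3.6, as was the oxygen sensor EGLN3 at 14.5 ± 4.47 against 27.6 ± 3.02. With all 50 libraries 5 were higher and 4 lower. Of 27 respiratory chain subunits 8 were lower and none higher (median -0.21), a share called under the 35.8% of all genes tested. NDUFV2 lay at 58.2 ± 13 against 102 ± 13.3. The count fell to 1 with all 50 libraries and was 10 with 49. Of 26 ribosomal proteins 15 were higher and none lower (median 0.42), with RPS27 at 649 ± 30.9 against 400.5 ± 25.7. That count was 2 with all 50 libraries and 15 with 49.

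At the lower concentrations the compounds were not told apart. At 10 uM limma called 0 of 12965 genes (0%) and at 0.1 uM 0 of 13103 (0%), with 204 and 403 genes at an unadjusted p under 0.05. At 10 uM, library 5 of quizalofop-p-ethyl held 53.8% of its summed FPKM in ribosomal RNA loci, and without it 0 of 12944 genes were called, 706 having an unadjusted p under 0.05. The 15 genes most higher at 1 mM had log2 differences of -0.16 to 0.40 at 10 uM without that library and of -0.19 to 0.18 at 0.1 uM. The 15 most lower ran from -1.98 to 0.14 and from -2.39 to 0.22, SNORA73A being the lowest at both. CYP3A4 lay at 0.1 uM at 3.78 ± 0.946 against 7.53 ± 4.05 FPKM and at 10 uM, with 4 libraries of quizalofop-p-ethyl, at 2.62 ± 0.803 against 5.67 ± 2.6. The difference between the compounds itself differed between 1 mM and 0.1 uM for 3640 of 13976 genes (26%), 1269 of them with a higher value at 1 mM (9.08%) and 2371 with a lower one (17%). The 30 genes were chosen by their values at 1 mM, so that their results in that test are not given. With all 50 libraries in the fit 1467 genes passed.

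**Figure D4:**
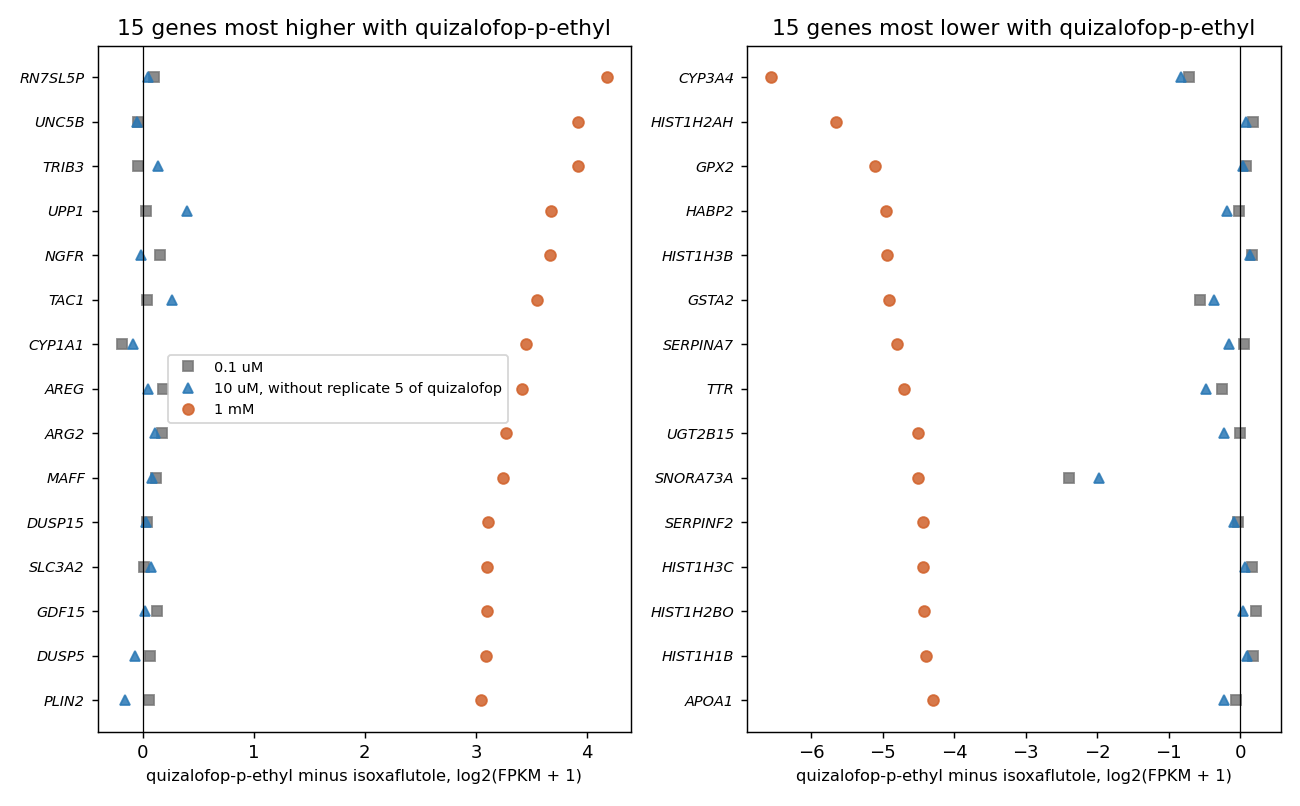
Difference between the compounds for the 15 genes most higher and the 15 most lower with quizalofop-p-ethyl at 1 mM, at 3 concentrations. The horizontal axis is the mean log2(FPKM + 1) with quizalofop-p-ethyl less that with isoxaflutole. The genes were chosen by their values at 1 mM, and at 10 uM and 0.1 uM the 15 higher genes lie between -0.19 and 0.40.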

How the data were processed

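RNA of 50 HepaRG libraries, 5 in each of 10 groups, was sequenced with 75 bp reads. Per the submitters' processing notes, HISAT, HISAT2 and StringTie were used with build GRCh38, with no version given. The authors deposited 1 table of FPKM (fragments relative to the length of a transcript and the size of its library) for 239290 transcripts, with no read counts, so the depth was estimated from 17521 single-exon transcripts. As FPKM is relative to the library, a few very abundant RNAs lower all other values. Small negative entries, 24 in all, were set to 0, and 1 broken line was rejoined. Per gene name, the 199173 named transcripts were summed, and 40117 unnamed ones were left out except as an alternative. Spreadsheet dates stood for 25 gene names, which were kept as they are.

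Genes with at least 1 FPKM in 5 libraries of a fit were tested with limma 3.58.1 (R 4.3.3) on a log2(FPKM + 1) scale, with a mean per group, trend and robust settings and Benjamini-Hochberg adjustment over all genes tested. Library totals were compared by an exact permutation test over 252 splits. The fit was tested on simulated data. Other settings tried were no filter, a pseudocount of 0.1, scaling by median ratios, all 50 libraries, 49 of them (without library 5 of quizalofop-p-ethyl at 10 uM), a replicate block, unnamed transcripts added, no trend, each library left out, and library 1 of both compounds left out (chosen after seeing the data). Named genes are the 15 most higher and 15 most lower called genes that bear an official symbol, reach a mean of 5 FPKM in the higher group and show no overlap, up to 5 called members of each list in each direction, and members of the CAR and PXR, AHR, fatty acid synthesis and tyrosine lists. Some genes that this rule names are not reported here. Other names were chosen after their values were seen. The comparison and the 40 gene lists were chosen with earlier results of these data known. Tables and plots were made with Python 3.11.15, pandas 2.3.3, numpy 2.4.6 and matplotlib 3.10.9.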

Additional observations from a re-analysis of the deposited data

Results flagged for a closer look

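The summed FPKM of quizalofop-p-ethyl library 1 at 1 mM was 569268, far from the other 4 libraries of its group at 737322 to 801657. In 516 groups of 5 values checked, those of the named genes and the library totals, 51 had 1 library whose gap to its nearest neighbour exceeded 0.71 of the group's range, Dixon's critical value. Chance flags about 1 in 20 such groups. The values that follow are levels on the log2(FPKM + 1) scale of the library that stood apart.

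Quizalofop-p-ethyl library 1 was the highest for ABCC2 (5.24), C6 (1.92), EGFR (6.75), EREG (4.17), GOT1 (6.79), PDIA4 (8.15), PLIN2 (10.01) and TGFA (4.66). Quizalofop-p-ethyl library 1 was the lowest for ARG2 (3.73), G0S2 (4.63), HIST1H2BO (1.28), HSPB1 (6.83), IRF7 (3.91) and TKT (7.91). Quizalofop-p-ethyl library 3 was the highest for FGFR4 (3.82). Quizalofop-p-ethyl library 3 was the lowest for CEBPB (1.96) and MDM2 (4.48). Quizalofop-p-ethyl library 4 was the highest for FAH (5.50). Quizalofop-p-ethyl library 4 was the lowest for PFKFB3 (1.60). Quizalofop-p-ethyl library 5 was the lowest for APOB (0.058), ASS1 (8.01), BAAT (0.30), CDH1 (1.44), FGA (3.33), HADHA (6.63), KRT19 (6.11), MVD (4.08), NDUFV2 (5.22), OAS1 (0.37), SCD (7.08), SLC40A1 (3.62), UGT1A1 (0.99) and UGT1A3 (0.26).

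Isoxaflutole library 1 was the highest for HSF1 (4.99) and LCN2 (7.02). Isoxaflutole library 1 was the lowest for EHHADH (3.98), INSIG2 (1.00), SERPINA7 (5.41) and TTR (9.07). Isoxaflutole library 2 was the highest for CPS1 (2.27). Isoxaflutole library 3 was the highest for PPARA (2.85), SREBF1 (5.22) and UNC5B (1.5002). Isoxaflutole library 3 was the lowest for FOS (2.76). Isoxaflutole library 4 was the lowest for ABCC2 (4.98), BAX (5.85) and NR1H4 (2.83). Isoxaflutole library 5 was the highest for PDK4 (4.06). Isoxaflutole library 5 was the lowest for DDIT3 (0.11) and LSS (3.95).

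The difference between the compounds at 1 mM differed from that at 0.1 uM for 3640 genes by the interaction term of limma's model, and for 1467 with all 50 libraries in the fit.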

How the results depend on the processing

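Depth limits low genes, since 1 read of a short transcript can move a level near 0, and the number of reads behind a value is not in the table. Of 4530 genes that passed at 1 mM, 57.5% also passed with all 50 libraries in the fit, where 2677 passed, and 95.7% with 49. The share was 72.8% with no filter and 78.1% to 88.5% without any 1 library. The count was 4436 with a pseudocount of 0.1, 4527 with no filter, 4765 with median-ratio scaling, 5433 with 49 libraries, 5748 with unnamed transcripts added, 4490 with no trend and no robust setting, and 3612 to 4350 without 1 library. With library 1 of both compounds left out, chosen after seeing the data, 3911 of 11980 genes passed, 76.4% of the calls at 1 mM being among them. The calls of ABCA1, APOB, CD36, EGF, GSTZ1, IGFBP1, KRT8, PNPLA3, SNORA73A and UGT1A1 were lost there, and the lists of lipoprotein assembly, of other phase I and II enzymes and of ER chaperones held 7, 15 and 8 lower members. Tests without 1 isoxaflutole library have 4 libraries in which genes absent with quizalofop-p-ethyl can pass the filter, so those genes were not tested there. Likewise FGF21, NGFR, TAC1, DUSP15, HK1 and IL6 were not tested without any 1 quizalofop-p-ethyl library, which leaves them with no such check. The interaction count was 1467 with all 50 libraries. At 10 uM 1 gene passed with 49 libraries (SUSD2), 2 with unnamed transcripts added (CT45A10 and HIST1H4E) and 0 to 3 without 1 library, and at 0.1 uM 0 to 1 without 1 library (SIX5, HSPA1B or MGP). These genes were named after their values were seen.

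The labels do not say what same-numbered libraries of the compounds share beside the number. The run of library 1 had the lowest summed FPKM in both, but deviations from the group means correlated from -0.0836 to 0.00133 within a number at 1 mM, and no library correlated best with its own. With the replicate number as a block 3698 genes passed at 1 mM, 79.7% of the calls without it, and 13 at 10 uM. Among named genes the block ended the calls of ABCA1, APOB, B2M, EGF, KRT8 and SLCO1B1 and gave one to MLXIPL. Leaving out 1 library ended, in at least 1 of the 10 cases, the calls of ABCA1, AEN, APOB, B2M, CD36, EGF, FABP1, FGA, GSTZ1, PNPLA3, PPARD and UGT1A1. Of calls not given as lost in the report, those of AEN, B2M, C4B, EGF, FGA and GSTZ1 were lost with no filter, those of AEN, B2M, CDKN1A, DDB2, ERBB2, HSPD1, KRT8, NDUFV2, PC, RPS27, SREBF1 and TNFRSF10B with all 50 libraries, that of LPIN1 with unnamed transcripts added, and that of PPARD with 49 libraries and with no trend and no robust setting.

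The difference of library totals ran, without 1 library, from 53809.0 to 115160 for summed FPKM, -540.25 to -348.0 for genes at 1 FPKM or more, -3013000 to 1947000 for estimated fragments and 0.401 to 0.667 for the mitochondrial share in percent, and without quizalofop-p-ethyl library 3 genes at 1 FPKM or more passed too (adjusted p = 0.0476, exact permutation test). The direction of some genes that did not pass, and of ARNT, turned in other settings. With median-ratio scaling it was 0.063 for ACACB, 0.055 for ACLY, 0.029 for CES2, 0.055 for FAS, 0.0025 for TXNRD1. With library 1 of both compounds left out it was 0.15 for ACACB, 0.057 for CES2, -0.11 for ELOVL6, -0.021 for FADS1, 0.10 for FADS2. With unnamed transcripts added it was -0.46 for ARNT, 0.041 for FAS, -0.17 for PPARA, 0.0032 for TXNRD1. Leaving out 1 library gave -0.24 to 0.31 for ACACB, -0.061 to 0.057 for ACLY, -0.11 to 0.025 for CES2, -0.44 to 0.079 for CYP1A2, -0.0032 to 0.42 for ELOVL6, -0.044 to 0.18 for FADS1, -0.19 to 0.020 for FADS2, -0.070 to 0.032 for FAS, -0.14 to 0.39 for MDM2, -0.017 to 0.31 for PPARA, -0.050 to 0.083 for TSKU and -0.18 to 0.082 for TXNRD1.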

Other observations

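Members of the insulin-like growth factor system, iron handling, the interferon response and epithelial junctions also differed between the compounds. Of all genes tested 14.5% were higher and 21.3% lower. Of 10 tested genes of the IGF system 4 were higher with quizalofop-p-ethyl and 3 lower. The binding proteins divided, with IGFBP3 at 116 ± 30.3 against 17 ± 1.42 FPKM and IGFBP1 at 88.7 ± 62.2 against 17.1 ± 5.29 (log2 difference 1.98, and 3.09 with unnamed transcripts of the locus added), and IGFBP5 and IGFBP2 lower at 0.19 ± 0.14 against 3.66 ± 0.827 and at 43.4 ± 14.9 against 135 ± 18.5. IGFBP5 was under 1 FPKM in every quizalofop-p-ethyl library and passed the filter through isoxaflutole alone. IRS2, which relays the insulin signal, was higher at 44 ± 15.3 against 12.5 ± 1.64. Of 10 iron genes 1 was higher and 5 lower. The storage protein FTH1 lay at 6358 ± 1862 against 3262 ± 813, the plasma carrier TF at 41.9 ± 45.4 against 389.6 ± 46.7 and the iron exporter SLC40A1 at 17.5 ± 3.65 against 51.6 ± 13. Of 17 autophagy and lysosome genes 5 were higher and 1 lower, a share near the 35.8% of all genes tested, and with all 50 libraries 2 and 0. WIPI1, of autophagosome formation, lay at 34.5 ± 9.31 against 11.1 ± 0.381 and the protease CTSD at 1788 ± 241 against 1023 ± 181.

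Of 22 interferon response and antigen presentation genes 3 were higher and 8 lower, with a median of -0.45, against 14.5% and 21.3% of all genes tested. UBD, a ubiquitin-like protein, lay at 3.04 ± 1.56 against 44.6 ± 9.09, OAS1, a sensor of double-stranded RNA, at 2.02 ± 1.05 against 5.61 ± 0.667 and B2M, the light chain of MHC class I, at 469 ± 99.1 against 660.0 ± 85.4. The factors IRF1 and IRF7 were higher at 24.7 ± 4.12 against 14.1 ± 2.97 and at 16.6 ± 1.41 against 10.2 ± 1.15. Of 15 keratin and junction genes 1 was higher and 9 lower, with a median of -1.28. The hepatocyte connexin GJB1 lay at 2.56 ± 1.68 against 34 ± 4.01, the adhesion protein CDH1 at 4.48 ± 1.61 against 17.1 ± 3.74 and KRT8, a keratin of simple epithelia, at 140.3 ± 80.6 against 455 ± 205. OCLN, of tight junctions, was higher at 39.5 ± 12.3 against 19.7 ± 2.38 (log2 difference 0.93, SE 0.18, adjusted p = 0.00221). Quizalofop-p-ethyl library 1 was the highest and library 5 the lowest for 20% of the tested IGF genes, 30% of the iron genes, 5.88% of the autophagy and lysosome genes, 27.3% of the interferon genes and 33.3% of the keratin and junction genes, against 18% of all genes tested.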
